A study of Drosophila melanogaster with 12 samples.

Results

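RNA-seq of fly heads was used to compare flies that expressed human TDP-43 in neurons (ELAV > hTDP-43) with flies that carried the hTDP-43 transgene and no driver (hTDP-43 / +). The comparison took every gene row of the count table first and every transposon family second: 12822 of 16952 gene rows and 120 of 123 transposon rows had enough counts to be tested. There were 2 libraries of each genotype, S11 and S12 for ELAV > hTDP-43 and S14 and S15 for hTDP-43 / +, from flies of 8 to 10 days after eclosion. The 4 libraries are part of a series of 12 samples, of which 2 further head libraries, S05 and S06, came from Repo > hTDP-43 flies that expressed the transgene in glia. The strain is labelled 2U in every library, and all 4 libraries of the comparison carry the hTDP-43 transgene. The ELAV > hTDP-43 flies also carry an ELAV-Gal4 driver that the hTDP-43 / + flies lack, so effects of hTDP-43 cannot be told apart from those of the driver insertion, of Gal4 or of the chromosome that carries them. The replicates were independent libraries from a population of animals, and p-values measure the spread between these libraries only.

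TDP-43 is a nuclear RNA-binding protein that is found in cytoplasmic inclusions in most patients with amyotrophic lateral sclerosis, and its overexpression is toxic to fly neurons. In the Gal4/UAS system a driver supplies the yeast activator Gal4 to a chosen cell type, and the transgene is transcribed where Gal4 is present. ELAV-Gal4 acts in neurons across the nervous system. Retrotransposons copy themselves through an RNA that is reverse transcribed, and small RNA pathways keep that RNA low in the germ line and in somatic tissue.

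The libraries held between 26783345 and 41150009 counts, and transposons took between 4.17% and 4.87% of them. Values below are normalised counts (CPM, the count scaled to a common library size) after TMM scaling, which sets the bulk of features to no change, and log2 fold changes are ELAV > hTDP-43 over hTDP-43 / +, with the standard error (SE) of a fit of the 4 libraries. The hTDP-43 transgene was not analysed here, so the labels could not be checked against it. TBPH, the fly counterpart of TDP-43, had 55.4 and 57.8 CPM in ELAV > hTDP-43 heads, against 67.3 and 62.0 CPM in hTDP-43 / + heads, and did not pass the test (log2 fold change -0.19). Of the marker lists, neurons summed to 8428 to 8665 CPM in ELAV > hTDP-43 and 8482 to 9502 CPM in hTDP-43 / + libraries, and photoreceptors to 41640 to 41760 CPM in ELAV > hTDP-43 and 40590 to 45930 CPM in hTDP-43 / + libraries. elav itself, the neuronal RNA-binding protein whose promoter names the driver, stood at 525 and 494 CPM in ELAV > hTDP-43 heads and at 482 and 512 CPM in hTDP-43 / + heads. In bulk heads, fewer cells of a type and less RNA per cell cannot be told apart.

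Few genes passed the test, and with 2 libraries per group this does not show how many genes changed. In edgeR's quasi-likelihood test, calls were made at a Benjamini-Hochberg adjusted p under 0.05 with all features adjusted as 1 family. Of the called genes 56 rose and 54 fell, which is 0.858% of the genes tested (0.437% and 0.421% by direction). The absolute log2 fold change of these genes ranged between 0.588 and 7.08. It was at least 2 for 39 genes, of which 24 rose and 15 fell, and under 1 for 36 genes, of which 16 rose and 20 fell. At an unadjusted p under 0.05 there were 1091 genes (8.51%), and the groups did not overlap for 4743 genes (37%). The genes just inside the threshold were CG2022 and dy, both at an adjusted p of 0.0467, and CG15282 at 0.0487, and those just outside it were Cyp6a8 at 0.0533, GC at 0.0547 and Atg1 at 0.0550 in the same edgeR fit.

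The number of calls rested on single libraries. Without S11, 28 genes were called and 27 of them were among the 110, and without S12 the counts were 36 and 31. Without S14, 1026 genes were called and without S15 359, and both fits included all 110. The lone library of a group is assumed in these fits to vary like the libraries of the other group. The control libraries were less alike than the driver libraries. Of 10706 features with a mean of at least 1 CPM, S14 and S15 differed more than 2-fold for 389 (3.63%). S11 and S12 did so for 275 (2.57%). A set of 22 genes and 2 families, HeT-A and Stalker2, passed in every one of 12 alternative fits, in which normalization, test, filter or samples were changed. These genes were w, Kmn1, CG11700, CG32553, CG18031, APC7, snoRNA:CG32479-a, AttA, lcs, CG7300 and Cyp6a17 among those that rose, and CR45456, CR45457, CG17005, Cks30A, CG3699, CG6142, CG3397, p24-2, Ipk1, tobi and CG33926 among those that fell.

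**Figure D1:**
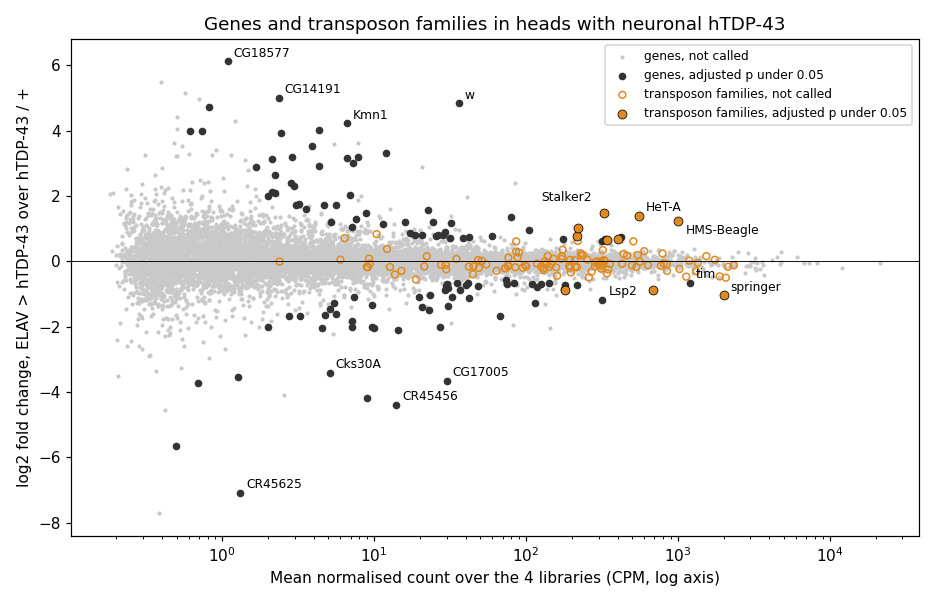
Log2 fold change of every tested gene and transposon family (vertical axis, ELAV > hTDP-43 over hTDP-43 / +) against its mean normalised count in CPM over the 4 libraries (horizontal log axis), with filled symbols for an adjusted p under 0.05. The 110 called genes lie on both sides of 0 and most of the largest changes have means under 10 CPM, whereas the 10 called families have means above 100 CPM and changes between -1.04 and 1.47.

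Called genes with a mean of at least 1 CPM and no overlap between the groups were ranked by their change. The largest rises among them were seen in genes with low counts in hTDP-43 / + heads. CG18577 had 2.38 and 1.92 CPM in ELAV > hTDP-43 heads, against 0 and 0.0504 CPM in hTDP-43 / + heads. It was counted 139 times in the first group and 2 times in the second, a ratio of 78.7 with a 95% counting interval of 21.4 to 656. CG14191, on the X chromosome, had 4.13 and 5.01 CPM in ELAV > hTDP-43 heads, against 0.124 and 0.151 CPM in hTDP-43 / + heads (log2 fold change 5.01 ± 0.37 SE). The groups lay far apart for both genes, neither of which has a role that is given here.

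The gene w encodes a half-transporter that brings pigment precursors into the granules of the eye, and a shortened copy of it marks many fly transgenes. It had 71.0 and 67.9 CPM in ELAV > hTDP-43 heads, against 2.50 and 2.37 CPM in hTDP-43 / + heads (log2 fold change 4.83 ± 0.12 SE; adjusted p = 1.87e-05 in edgeR). This was the lowest adjusted p of all features. Repo > hTDP-43 heads had still more w, since the log2 difference of ELAV > hTDP-43 from Repo > hTDP-43 was -1.73 (adjusted p = 2.46e-05 in an edgeR fit of the 6 head libraries). The paper names a w allele in the strain to which its driver and hTDP-43 stocks were backcrossed. Copies of w that come with a driver and transcripts of the w locus itself cannot be told apart in these counts. The source of the w reads was not tested.

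Kmn1, a kinetochore protein, had 12.3 and 12.8 CPM in ELAV > hTDP-43 heads, against 0.432 and 0.882 CPM in hTDP-43 / + heads (log2 fold change 4.22 ± 0.30 SE). APC7, a subunit of the anaphase-promoting complex, had 5.58 and 4.72 CPM in ELAV > hTDP-43 heads, against 0.679 and 0.453 CPM in hTDP-43 / + heads (3.19 ± 0.32 SE). Both lie on the X chromosome.

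CG11700, on the X chromosome, is a gene of the polyubiquitin type, from which the ubiquitin that tags proteins for the proteasome is cut. It had 7.06 and 7.33 CPM in ELAV > hTDP-43 heads, against 0.525 and 0.705 CPM in hTDP-43 / + heads (log2 fold change 3.53 ± 0.26 SE). Ubi-p5E, a polyubiquitin gene of the X chromosome that was named after its values were seen, had 367 and 393 CPM in ELAV > hTDP-43 heads, against 257 and 240 CPM in hTDP-43 / + heads (0.61 ± 0.09 SE). The ubiquitin units of these genes are nearly identical, so the division of reads between them is uncertain. Of 42 tested proteasome subunit genes 0 passed, beside 0.858% of all genes, and 2 were at an unadjusted p under 0.05, beside 8.51%. Their median log2 fold change was -0.009, beside 0.001 over all genes.

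Of the other genes with large rises, some lie on the X chromosome and some on 3L. CG32553, on the X chromosome and annotated as a long noncoding RNA, had 20.95 and 22.9 CPM in ELAV > hTDP-43 heads, against 2.44 and 1.99 CPM in hTDP-43 / + heads (log2 fold change 3.31 ± 0.17 SE). CG18031, also on the X chromosome, had 14.5 and 13.8 CPM in ELAV > hTDP-43 heads, against 1.76 and 1.33 CPM in hTDP-43 / + heads (3.20 ± 0.20 SE). The libraries of each group were close together for both. CG43679, on 3L, had 4.98 and 2.69 CPM in ELAV > hTDP-43 heads and 0.525 and 0.353 CPM in hTDP-43 / + heads (3.14 ± 0.44 SE). The small nucleolar RNA snoRNA:CG32479-a, also on 3L, had 13.2 and 10.8 CPM in ELAV > hTDP-43 heads and 1.51 and 1.16 CPM in hTDP-43 / + heads (3.17 ± 0.23 SE). Small nucleolar RNAs guide the modification of other RNAs, and reads of the gene that hosts this one may be counted with it. It was the sole one to pass of 203 small nucleolar and nuclear RNA genes tested (0.493%).

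LysD, a lysozyme of the gut, had 12.5 and 3.72 CPM in ELAV > hTDP-43 heads, against 0.618 and 0.403 CPM in hTDP-43 / + heads (log2 fold change 4.01 ± 0.62 SE). Its 2 ELAV > hTDP-43 libraries lay far apart, and without S11 the log2 fold change was 2.86 at an adjusted p of 0.0811. LysD belongs to a cluster of nearly identical lysozyme genes, so its count is uncertain. The gut markers also summed to more in S11, with 75.7 CPM, than in S12, with 27.6 CPM, but these sums overlap with those of 34.5 CPM in S14 and 14.1 CPM in S15, and 0 of the 6 markers passed. The call of LysD was also lost when TMM factors came from genes only (adjusted p = 0.0506 in edgeR).

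The largest fall among called genes was that of CR45625, a long noncoding RNA on the X chromosome. It was counted 1 time in the ELAV > hTDP-43 libraries together and 188 times in the hTDP-43 / + libraries, which makes it 166-fold lower with a 95% counting interval of 29.5 to 6600. Both hTDP-43 / + libraries stood at 2.59 and 2.62 CPM. CG12995, also on the X chromosome, was counted 1 time in ELAV > hTDP-43 and 70 times in hTDP-43 / + libraries (61.8-fold lower, 95% counting interval 10.7 to 2480). For neither gene was a difference called between ELAV > hTDP-43 and Repo > hTDP-43 heads in the edgeR fit of the 6 head libraries (adjusted p = 0.659 and 0.690), and the counts are too few to bound that difference closely.

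A group of 4 neighbours on 2L fell together. CR45456 had 1.48 and 1.03 CPM in ELAV > hTDP-43 heads, against 26.2 and 27.2 CPM in hTDP-43 / + heads (log2 fold change -4.39 ± 0.19 SE). CR45457 had 1.09 and 0.737 CPM in ELAV > hTDP-43 heads, against 17.5 and 16.4 CPM in hTDP-43 / + heads (-4.18 ± 0.22 SE). Both are long noncoding RNAs in the annotation. CG17005 had 4.35 and 4.46 CPM in ELAV > hTDP-43 heads, against 56.0 and 55.1 CPM in hTDP-43 / + heads (-3.66 ± 0.12 SE). Cks30A, which binds cyclin-dependent kinases, had 0.985 and 0.737 CPM in ELAV > hTDP-43 heads, against 9.45 and 9.22 CPM in hTDP-43 / + heads (-3.42 ± 0.23 SE). The fall stopped at the next tested gene on either side: Eaat1, a glutamate transporter of glia, had a log2 fold change of -0.01 and Ggamma30A, a G protein subunit of photoreceptors, one of -0.23, and neither passed. All 4 were also lower in ELAV > hTDP-43 than in Repo > hTDP-43 heads, by log2 differences of -4.36 for CR45456, -4.12 for CR45457, -3.59 for CG17005 and -4.44 for Cks30A.

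Further falls of about 4-fold or more were found in genes of several kinds. CG16879 had 0.273 and 0.111 CPM in ELAV > hTDP-43 heads, against 2.41 and 2.29 CPM in hTDP-43 / + heads (log2 fold change -3.53 ± 0.49 SE), and was not called in the fit of 6 libraries (adjusted p = 0.117 in edgeR). CG3699 had 4.49 and 6.45 CPM in ELAV > hTDP-43 heads, against 25.7 and 20.96 CPM in hTDP-43 / + heads (-2.10 ± 0.20 SE). CG18673 fell by 2.06 and CG6142 fell by 2.04 on the log2 scale. Strica, a caspase with a long prodomain, had 0.739 and 0.848 CPM in ELAV > hTDP-43 heads, against 3.24 and 3.20 CPM in hTDP-43 / + heads (-2.02 ± 0.31 SE).

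**Figure D2:**
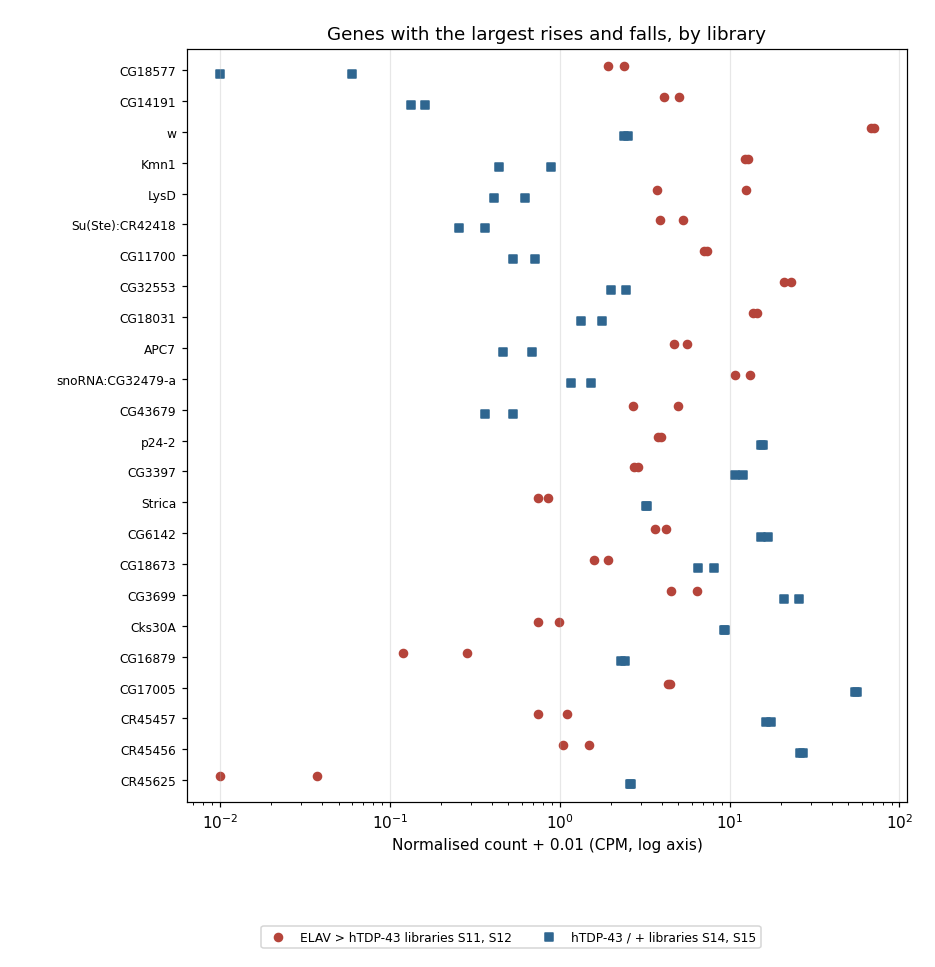
Normalised count in each library (horizontal log axis, CPM + 0.01) of the 12 called genes with the largest rise and the 12 with the largest fall, taken from called genes whose mean reached 1 CPM, with circles for the ELAV > hTDP-43 libraries S11 and S12 and squares for the hTDP-43 / + libraries S14 and S15. The genes shown were also chosen to have no overlap between the groups. LysD has a wide spread within ELAV > hTDP-43, with 12.5 and 3.72 CPM.

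Adjacent genes moved together at 4 further places. By the gene order of the RefSeq Release 6 annotation, which is later than the dm3 build of the files, 109 of the 110 called genes could be placed on an arm, and 12 of them stood in 5 runs of called genes with at most 1 listed gene between members. Each of the 5 runs had 1 direction. Kmn1 stood beside CG11699, which had 32.5 and 35.05 CPM in ELAV > hTDP-43 heads, against 14.1 and 15.2 CPM in hTDP-43 / + heads (log2 fold change 1.20 ± 0.11 SE). On chromosome 4, the noncoding genes CR44027 and CR43437, with 1 listed gene between them, rose by 1.71 each on the log2 scale. CR44027 is annotated as antisense, and since counting by strand is not described for these files its reads may come from the other strand.

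On 3R, the aldo-keto reductase genes CG12224 and CG3397 both fell. CG12224 had 1.37 and 1.25 CPM in ELAV > hTDP-43 heads, against 4.20 and 4.18 CPM in hTDP-43 / + heads (log2 fold change -1.67 ± 0.25 SE), and CG3397 had 2.74 and 2.88 CPM in ELAV > hTDP-43 heads, against 12.01 and 10.8 CPM in hTDP-43 / + heads (-2.02 ± 0.18 SE). Their neighbour CG18547, of the same enzyme family, had 6.59 and 9.07 CPM in ELAV > hTDP-43 heads, against 14.8 and 17.4 CPM in hTDP-43 / + heads, and did not pass (-1.05 ± 0.19 SE; adjusted p = 0.0700 in edgeR). The groups did not overlap for any of the 3.

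The other run on 3R held Unc-115b, an actin-binding protein gene, and p24-2, of the p24 family that sorts cargo between the endoplasmic reticulum and the Golgi. Unc-115b had 34.5 and 37.2 CPM in ELAV > hTDP-43 heads, against 61.7 and 59.6 CPM in hTDP-43 / + heads (log2 fold change -0.76 ± 0.10 SE). p24-2 had 3.94 and 3.76 CPM in ELAV > hTDP-43 heads, against 15.3 and 15.8 CPM in hTDP-43 / + heads (-2.01 ± 0.15 SE). The place holds close copies: CG18542 and CG32939 on either side had the same value as each other in every library, and Unc-115a and eca, also nearby, are relatives of the called pair. Unc-115a had a log2 fold change of -0.30 and eca one of 0.08, and neither passed. The division of reads among such copies is uncertain.

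By arm, the X chromosome held 27 called genes of 1992 tested (1.36%), of which 18 rose and 9 fell. The large autosome arms held between 0.692% and 0.801%: 17 genes on 2L (6 rose and 11 fell), 18 on 2R (7 and 11), 20 on 3L (11 and 9) and 23 on 3R (9 and 14). The X chromosome thus carried 24.5% of the called genes and 15.5% of the tested ones. Both called genes of chromosome 4, of 102 tested, rose.

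The Y chromosome, which carries few genes and most of them active in the male germ line, had 20 tested genes, all at 5.28 CPM or less. Summed over these genes the libraries held 31.2 and 26.5 CPM for ELAV > hTDP-43 heads, against 9.36 and 11.8 CPM for hTDP-43 / + heads. Both ELAV > hTDP-43 libraries were above both hTDP-43 / + libraries for 14 of the 20 genes, beside 18.9% of all genes, and below them for 1, and the median log2 fold change was 1.53. The 2 that passed were FDY, a Y-linked copy of vig2, and Su(Ste):CR42418. FDY had 1.94 and 1.22 CPM in ELAV > hTDP-43 heads, against 0.0926 and 0.0252 CPM in hTDP-43 / + heads (log2 fold change 4.73 ± 0.70 SE), while vig2 had 57.8 and 61.4 CPM in ELAV > hTDP-43 heads, against 57.1 and 63.2 CPM in hTDP-43 / + heads (-0.01). Su(Ste):CR42418, of the repeats that silence the Stellate genes in the testis, had 5.28 and 3.91 CPM in ELAV > hTDP-43 heads, against 0.247 and 0.353 CPM in hTDP-43 / + heads (3.91 ± 0.36 SE), and its many near-identical copies make its count uncertain. Many of the tested Y-linked rows are copies of Su(Ste), whose reads may be shared, so the rows are not independent. The Y-linked genes kl-2, kl-3 and kl-5 had log2 fold changes of 0.73, 0.70 and 0.39, and none of them passed. At these low levels the values of most Y-linked genes rest on few counts.

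The share of males among the heads is not given in the sources used here. The noncoding RNAs roX1 and roX2, which coat the male X chromosome, summed to 3784 and 3480 CPM in ELAV > hTDP-43 heads and to 3764 and 4124 CPM in hTDP-43 / + heads. Testis genes had a median log2 fold change of 0.67 over 26 tested members and accessory gland and seminal fluid genes one of 0.89 over 33. In either list 0 members passed, with 3 and 10 at an unadjusted p under 0.05, beside 8.51% of all genes. The summed testis markers were 39.96 and 22.8 CPM in ELAV > hTDP-43 heads, against 23.7 and 11.3 CPM in hTDP-43 / + heads, so that S12 and S14 were alike. The accessory gland markers were at 71.3 and 35.8 CPM in ELAV > hTDP-43 heads, against 29.6 and 15.2 CPM in hTDP-43 / + heads. Their part in the rise of the Y-linked genes was not tested.

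**Figure D3:**
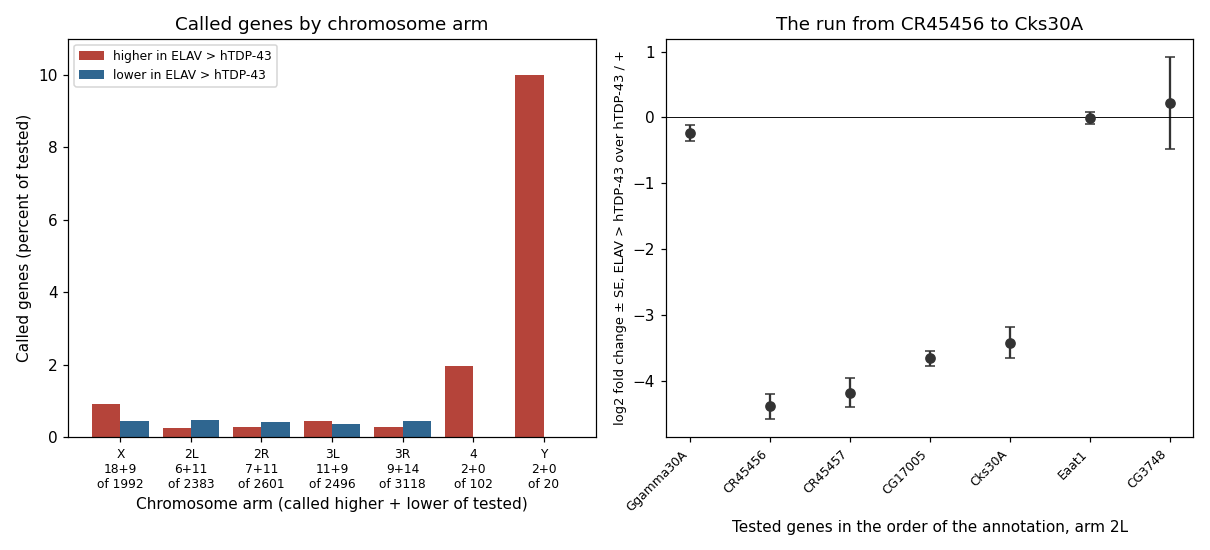
Left, called genes in percent of the tested genes of each chromosome arm, with bars for genes higher and lower in ELAV > hTDP-43 and the numbers under each arm. Right, log2 fold change ± SE of the tested genes around the run on 2L, in annotation order: the 4 called genes lie between -4.39 and -3.42, and Ggamma30A and Eaat1 beside them at -0.23 and -0.01.

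Lists of genes that neurons use to signal held no called gene, in a comparison where 0.858% of all genes were called, so that few or none would be called in lists of this size at that share. Of 23 presynaptic and pan-neuronal genes, 45 genes for the synthesis, transport and reception of transmitters and 35 ion channel genes, 0 were called, with 0, 5 and 5 at an unadjusted p under 0.05. Their median log2 fold changes were -0.035, -0.006 and -0.057. Of 36 neuropeptide genes 0 were called as well, with 10 at an unadjusted p under 0.05, beside 8.51% of all genes. Their median was -0.24, and both ELAV > hTDP-43 libraries were below both hTDP-43 / + libraries for 16 of them and above for 3, beside 18% and 18.9% of all genes. CNMa, which encodes the neuropeptide CNMamide and was named after its values were seen, rose, with 4.84 and 5.93 CPM in ELAV > hTDP-43 heads and 1.67 and 1.89 CPM in hTDP-43 / + heads (log2 fold change 1.59 ± 0.24 SE). Among activity-regulated and stress transcription genes, Hr38, a nuclear receptor induced by neuronal firing, was the 1 called gene of 22 (4.55%, beside 0.858% of all genes). It had 85.9 and 79.1 CPM in ELAV > hTDP-43 heads, against 136 and 134 CPM in hTDP-43 / + heads (-0.71 ± 0.09 SE).

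The lists of genes tied to TDP-43 and to RNA silencing held 0 called genes, which is near the share of 0.858% over all genes for lists of this size. The lists were 34 genes for RNA-binding proteins linked to TDP-43, 33 orthologs of genes linked to amyotrophic lateral sclerosis, 20 genes of the siRNA and miRNA pathways and 32 of the piRNA pathway. At an unadjusted p under 0.05 they held 0, 1, 0 and 5 genes, beside 8.51% of all genes. The RNA-binding proteins lay within a narrow range, between -0.19 and 0.06. Of the 34, 30 were below 0, beside 6378 of 12822 over all genes, and whether they shifted as a set was not tested. AGO2, the slicer of the siRNA pathway, had 195 and 203 CPM in ELAV > hTDP-43 heads, against 204.8 and 202 CPM in hTDP-43 / + heads. Dcr-2, which cuts double-stranded RNA into siRNAs, had 67.8 and 69.8 CPM in ELAV > hTDP-43 heads, against 80.03 and 72.8 CPM in hTDP-43 / + heads (log2 fold change -0.15 ± 0.10 SE).

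Genes of glia were on the higher side. Of 19 glial genes 16 had a positive log2 fold change with a median of 0.17. For 11 both ELAV > hTDP-43 libraries were above both hTDP-43 / + libraries, beside 18.9% of all genes. A single gene passed (5.26%, beside 0.858% of all genes). This was Mdr65, an efflux transporter of the glia that form the blood-brain barrier, with 75.4 and 75.4 CPM in ELAV > hTDP-43 heads, against 46.3 and 41.7 CPM in hTDP-43 / + heads (log2 fold change 0.78 ± 0.10 SE). Gat, the GABA transporter of astrocyte-like glia, had 85.9 and 89.45 CPM in ELAV > hTDP-43 heads, against 50.5 and 61.6 CPM in hTDP-43 / + heads (0.64 ± 0.12 SE; adjusted p = 0.0719 in edgeR), and alrm, a marker of the same cells, had 57.9 and 66.7 CPM in ELAV > hTDP-43 heads, against 41.9 and 31.8 CPM in hTDP-43 / + heads (0.76 ± 0.15 SE; adjusted p = 0.0937 in edgeR). repo, which specifies glia, had 74.2 and 78.9 CPM in ELAV > hTDP-43 heads and 78.5 and 69.1 CPM in hTDP-43 / + heads, which overlap. The summed glial markers were 2001 and 2105 CPM in ELAV > hTDP-43 heads and 1681 and 1955 CPM in hTDP-43 / + heads.

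The called members of the eye lists were, apart from w, lower. Of 32 phototransduction genes 1 was called (3.12%, beside 0.858% of all genes), the blue-sensitive opsin Rh5. It had 86.5 and 87.2 CPM in ELAV > hTDP-43 heads, against 144 and 153 CPM in hTDP-43 / + heads (log2 fold change -0.77 ± 0.09 SE). The other opsins among the photoreceptor markers did not pass: Rh3 was at -0.06, Rh4 at 0.22, Rh6 at -0.19 and ninaE, the opsin of the outer photoreceptors, at -0.04. Of 21 eye pigment and eye colour genes 3 were called (14.3%, beside 0.858% of all genes), w and a pair of enzymes of pteridine synthesis. Pu, the GTP cyclohydrolase at the head of that pathway, had 136 and 136 CPM in ELAV > hTDP-43 heads, against 213 and 239 CPM in hTDP-43 / + heads (-0.74 ± 0.10 SE). se, which makes a precursor of the red drosopterins, had 11.1 and 11.8 CPM in ELAV > hTDP-43 heads, against 27.6 and 32.5 CPM in hTDP-43 / + heads (-1.40 ± 0.13 SE). Both were higher in ELAV > hTDP-43 than in Repo > hTDP-43 heads, by 0.93 for Pu and 0.98 for se on the log2 scale.

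The gene t, or tan, releases histamine, the transmitter of photoreceptors, from its conjugate, and was named after its values were seen. It had 130 and 122 CPM in ELAV > hTDP-43 heads, against 230 and 226 CPM in hTDP-43 / + heads (log2 fold change -0.85 ± 0.09 SE). retinin, a protein of the corneal lens and also named after its values were seen, went the other way, with 404 and 417 CPM in ELAV > hTDP-43 heads and 234 and 278 CPM in hTDP-43 / + heads (0.68 ± 0.11 SE).

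In the circadian clock, tim was the 1 called gene of 16 (6.25%, beside 0.858% of all genes). tim encodes the partner of Per that light destroys, and it had 933 and 912 CPM in ELAV > hTDP-43 heads, against 1446 and 1479 CPM in hTDP-43 / + heads (log2 fold change -0.67 ± 0.09 SE). per had 199 and 195 CPM in ELAV > hTDP-43 heads, against 268 and 263 CPM in hTDP-43 / + heads and did not pass (-0.43 ± 0.09 SE; adjusted p = 0.0941 in edgeR). vri and Pdp1, which like per and tim are switched on by Clock, were at -0.29 and -0.28, and Clk itself at 0.33, none of them called. Both ELAV > hTDP-43 libraries were below both hTDP-43 / + libraries for 8 of the 16 genes and above for 1, beside 18% and 18.9% of all genes. The time of day at which heads were taken is not given in the sources used here, and its part in these values was not tested.

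The called genes of the immune lists went in both directions. AttA, an attacin that acts against bacteria, had 7.69 and 7.63 CPM in ELAV > hTDP-43 heads, against 1.20 and 0.831 CPM in hTDP-43 / + heads (log2 fold change 2.92 ± 0.26 SE). It was the 1 called gene of 25 antimicrobial and immune-induced peptide genes (4%, beside 0.858% of all genes). Its close copy AttB had 4.79 and 4.31 CPM in ELAV > hTDP-43 heads, against 2.10 and 2.01 CPM in hTDP-43 / + heads and did not pass (1.15 ± 0.23 SE), and reads could be divided between them. The list as a whole ranged between -2.05 and 2.92, with 13 genes above 0 and 12 below. At an unadjusted p under 0.05 it held 11 genes, beside 8.51% of all genes. Both ELAV > hTDP-43 libraries were above both hTDP-43 / + libraries for 10 genes and below them for 3. Over all genes these shares were 18.9% and 18%. The summed list was 504 and 390 CPM in ELAV > hTDP-43 heads and 425 CPM in S14 and 1273 CPM in S15, so that S15 stood apart. The induced peptide genes IM3, with 316 CPM in S15 and 61.3 CPM in S14, and IM4, with 399 CPM and 67.2 CPM, were high in that library, and neither passed. Listericin, an antibacterial protein named after its values were seen, had 44.2 and 43.9 CPM in ELAV > hTDP-43 heads and 16.5 and 23 CPM in hTDP-43 / + heads (1.16 ± 0.16 SE).

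Tep4, a thioester protein related to complement, rose, with 493 and 569 CPM in ELAV > hTDP-43 heads and 330 and 307 CPM in hTDP-43 / + heads (log2 fold change 0.74 ± 0.11 SE). It was the 1 called gene of 35 in the Toll and Imd list (2.86%, beside 0.858% of all genes). TotX, of the Turandot proteins that are secreted under stress, fell, with 28.2 and 23.6 CPM in ELAV > hTDP-43 heads and 42.98 and 52.6 CPM in hTDP-43 / + heads (-0.88 ± 0.14 SE). Its call was lost with DESeq2 size factors in edgeR (adjusted p = 0.0587) and with TMM factors from genes only (0.0595). Its relative TotA had 78.3 and 58.4 CPM in ELAV > hTDP-43 heads, against 117 and 136 CPM in hTDP-43 / + heads and a like log2 fold change of -0.88, and missed the threshold (adjusted p = 0.0609 in edgeR). Of 28 heat shock protein genes 0 were called, beside 0.858% of all genes. At an unadjusted p under 0.05 there were 5, beside 8.51% of all genes. lectin-28C, a sugar-binding protein, was the 1 called gene of 6 lectins (16.7%, beside 0.858% of all genes) and fell by 0.87 on the log2 scale.

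In DNA repair and cell death, 2 of 34 genes were called (5.88%, beside 0.858% of all genes), Strica, given above, and mre11. mre11, a nuclease of the complex that senses broken DNA ends, had 14.3 and 17.03 CPM in ELAV > hTDP-43 heads, against 7.78 and 6.52 CPM in hTDP-43 / + heads (log2 fold change 1.13 ± 0.17 SE). Its partners did not pass, with rad50 at 0.06 and nbs at -0.02. Outside the list, lig3, DNA ligase III, had 31.1 and 33.1 CPM in ELAV > hTDP-43 heads and 19.9 and 17.7 CPM in hTDP-43 / + heads (0.77 ± 0.12 SE), and was named after its values were seen. lok, the checkpoint kinase Chk2, was at 4.76 and 4.46 CPM in ELAV > hTDP-43 heads and 5.002 and 5.31 CPM in hTDP-43 / + heads, and p53 at 7.47 and 7.15 CPM in ELAV > hTDP-43 heads, against 7.07 and 7.23 CPM in hTDP-43 / + heads. Neither passed.

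Of 21 larval serum and fat body genes 3 were called (14.3%, beside 0.858% of all genes). Lsp2, a storage protein of the fat body and haemolymph, had 175 and 215 CPM in ELAV > hTDP-43 heads, against 430 and 449 CPM in hTDP-43 / + heads (log2 fold change -1.17 ± 0.12 SE). tobi, an alpha-glucosidase regulated by insulin-like signals, had 26.6 and 37.6 CPM in ELAV > hTDP-43 heads, against 104 and 99.7 CPM in hTDP-43 / + heads (-1.67 ± 0.16 SE). Both fell, whereas Yp1, a yolk protein made in females, had 12.04 and 10.3 CPM in ELAV > hTDP-43 heads and 3.49 and 2.06 CPM in hTDP-43 / + heads (2.02 ± 0.27 SE). The related yolk protein Yp2 was at 4.92 and 5.09 CPM in ELAV > hTDP-43 heads, against 1.94 and 2.24 CPM in hTDP-43 / + heads (1.25 ± 0.23 SE) and did not pass. The fat body marker list, to which Lsp2 belongs, summed to 358 and 417 CPM in ELAV > hTDP-43 heads and to 608 and 629.8 CPM in hTDP-43 / + heads. Without Lsp2 its other tested members summed to 183 and 201 CPM in ELAV > hTDP-43 heads and to 178 and 180 CPM in hTDP-43 / + heads, and the median log2 fold change of the tested markers was 0.30.

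Among 77 cytochrome P450 genes, which oxidise toxins and hormones, 2 were called (2.6%, beside 0.858% of all genes). At an unadjusted p under 0.05 there were 21, beside 8.51% of all genes. The median log2 fold change was 0.007, with 40 genes above 0 and 37 below. Cyp6a17 had 32.9 and 34.4 CPM in ELAV > hTDP-43 heads, against 12.1 and 10.4 CPM in hTDP-43 / + heads (log2 fold change 1.58 ± 0.13 SE), and its close relative Cyp6a23 had 18.6 and 26.4 CPM in ELAV > hTDP-43 heads, against 32.1 and 24.6 CPM in hTDP-43 / + heads, which overlap. Cyp6a20, known for an effect on aggression between males, had 15.3 and 19.3 CPM in ELAV > hTDP-43 heads and 36.6 and 52.2 CPM in hTDP-43 / + heads (-1.36 ± 0.19 SE). Ugt35b, a UDP-glycosyltransferase, rose by 0.74 and was the 1 called gene of 13 in its family (7.69%, beside 0.858% of all genes). Of 32 glutathione S-transferase genes, 24 antioxidant genes and 16 genes for enzymes of glycolysis 0 passed, with 2, 1 and 1 at an unadjusted p under 0.05. Ipk1, an inositol polyphosphate kinase named after its values were seen, had 11.5 and 12.6 CPM in ELAV > hTDP-43 heads and 34.5 and 33.6 CPM in hTDP-43 / + heads (-1.50 ± 0.12 SE).

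Of the remaining lists, muscle and chemosensation each had 1 called gene. Act88F, the actin of flight muscle, had 3.17 and 2.25 CPM in ELAV > hTDP-43 heads and 7.97 and 6.98 CPM in hTDP-43 / + heads (log2 fold change -1.45 ± 0.23 SE), and shares much of its sequence with other actins, which makes its count uncertain. Its call was lost with TMM factors from genes only (adjusted p = 0.0512 in edgeR) and with a minimum of 10 counts in every library (0.0525). Ir41a, an ionotropic receptor of olfactory neurons, had 12.6 and 13.3 CPM in ELAV > hTDP-43 heads and 5.03 and 4.23 CPM in hTDP-43 / + heads (1.49 ± 0.17 SE). It was the 1 called gene of 62 chemoreceptor genes tested (1.61%, beside 0.858% of all genes). Noncoding RNA genes with CR symbols gave 12 calls of 937 (1.28%, beside 0.858% of all genes), of which 8 rose and 4 fell. Cytosolic and mitochondrial ribosomal protein genes gave 0 calls of 88 and 0 of 73. At an unadjusted p under 0.05 they held 2 and 1, beside 8.51% of all genes. Hey, a repressor that acts downstream of Notch and was named after its values were seen, rose, with 5.42 and 4.09 CPM in ELAV > hTDP-43 heads and 0.834 and 0.957 CPM in hTDP-43 / + heads (2.40 ± 0.29 SE).

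**Figure D4:**
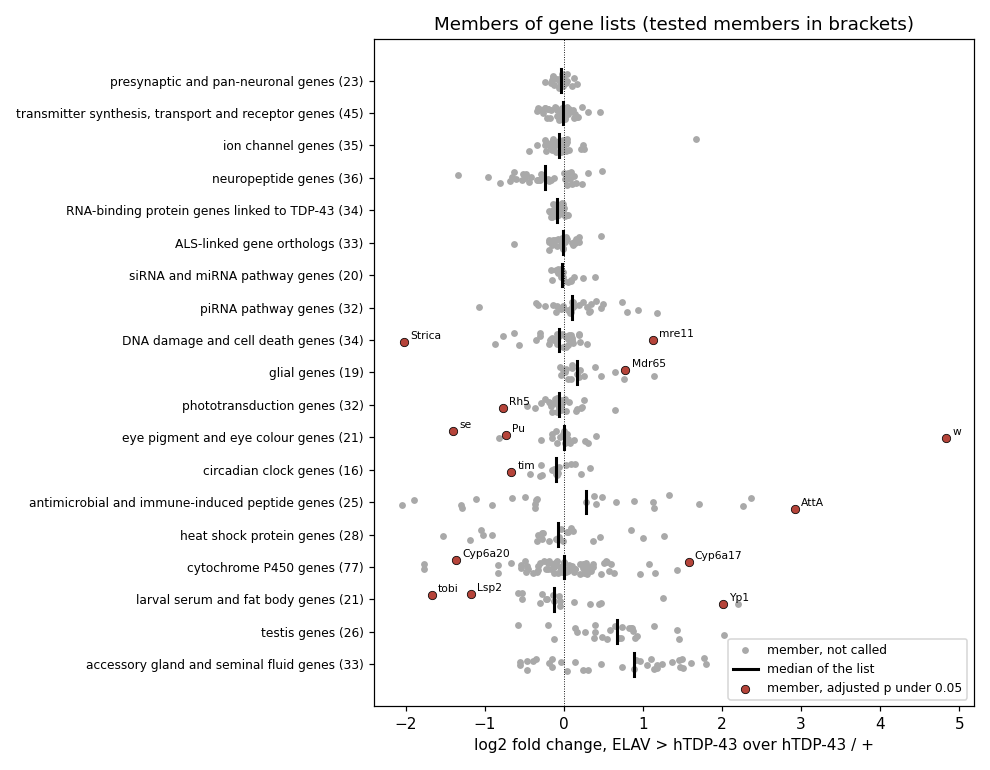
Log2 fold change (ELAV > hTDP-43 over hTDP-43 / +) of each tested member of 19 gene lists, with a bar at the median of each list and filled symbols with names for members at an adjusted p under 0.05. The neuronal lists lie close to 0 with 0 called members, the neuropeptide list has a median of -0.24, the accessory gland list one of 0.89, and w at 4.83 is the called member furthest from its list.

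Transposon families passed the test more often than genes did: 10 of 120 families (8.33%), of which 7 rose (5.83%) and 3 fell (2.5%), beside 0.858% of genes. Families have far more counts than most genes, and the share of called features was not compared at equal counts. At an unadjusted p under 0.05 there were 38 families (31.7%), 18 above and 20 below the controls. Both ELAV > hTDP-43 libraries were above both hTDP-43 / + libraries for 26 families (21.7%) and below them for 48 (40%). The balance over all families was on the lower side: 47 had a positive and 73 a negative log2 fold change with a median of -0.086, beside 0.001 for genes. That median was -0.024 without S14, -0.141 without S15 and -0.049 with library size alone. Of 60 LTR families 7 were called, 5 higher and 2 lower, of 39 LINE families 3, 2 higher and 1 lower, and of 21 DNA families 0, with 4 at an unadjusted p under 0.05.

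The elements that maintain fly telomeres are the LINE families HeT-A, TAHRE and TART, which add themselves to chromosome ends in place of telomerase. HeT-A had 784 and 831 CPM in ELAV > hTDP-43 heads, against 302 and 311 CPM in hTDP-43 / + heads (log2 fold change 1.40 ± 0.09 SE; adjusted p = 0.00189 in edgeR). TAHRE had 273 and 319 CPM in ELAV > hTDP-43 heads, against 146 and 147 CPM in hTDP-43 / + heads (1.02 ± 0.11 SE). Both were higher in each ELAV > hTDP-43 library, and so was TART, with 268 and 264 CPM in ELAV > hTDP-43 heads, against 187 and 158 CPM in hTDP-43 / + heads (0.62 ± 0.11 SE), which missed the threshold (adjusted p = 0.0567 in edgeR). TART was called with DESeq2 (adjusted p = 3.06e-05). In edgeR it was called with library size alone (adjusted p = 0.0465), with no filter (0.0234) and in the fit of 6 libraries (0.0184). It was not called with the other scalings or with at least 10 counts in every library. HeT-A and TAHRE share sequence at their ends. How reads with several alignments were divided between families is not given in the sources used here.

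Among LTR families, which resemble retroviruses, Stalker2 showed the largest rise, with 461 and 494 CPM in ELAV > hTDP-43 heads and 187 and 157 CPM in hTDP-43 / + heads (log2 fold change 1.47 ± 0.12 SE). HMS-Beagle had 1322 and 1501 CPM in ELAV > hTDP-43 heads and 652 and 543 CPM in hTDP-43 / + heads (1.24 ± 0.12 SE). For both the lowest ELAV > hTDP-43 library was above 2-fold of the highest control. The rises of gtwin (0.78 ± 0.10 SE), mdg3 (0.68 ± 0.09 SE) and 3S18 (0.66 ± 0.09 SE) were smaller. 3S18 stood at 415 and 416 CPM in ELAV > hTDP-43 heads, against 276 and 249 CPM in hTDP-43 / + heads. mdg1, with 583 and 645 CPM in ELAV > hTDP-43 heads, against 429 and 377 CPM in hTDP-43 / + heads, did not pass (0.61 ± 0.11 SE; adjusted p = 0.0609 in edgeR). gypsy did not pass either, with 460 and 483 CPM in ELAV > hTDP-43 heads, against 417 and 392 CPM in hTDP-43 / + heads. Its log2 fold change was 0.22 ± 0.09 SE (adjusted p = 0.549 in edgeR). mdg1 was called with DESeq2 (adjusted p = 2.26e-05) and in the other fits given above that called TART.

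The families that fell were springer, Transpac and Juan. springer, an LTR family, had 1253 and 1384 CPM in ELAV > hTDP-43 heads, against 3030 and 2381 CPM in hTDP-43 / + heads (log2 fold change -1.04 ± 0.13 SE). Transpac, also an LTR family, had 479 and 495 CPM in ELAV > hTDP-43 heads, against 919 and 860 CPM in hTDP-43 / + heads (-0.87 ± 0.09 SE). Juan, a LINE family, had 131 and 123 CPM in ELAV > hTDP-43 heads and 232 and 236 CPM in hTDP-43 / + heads (-0.88 ± 0.09 SE). The groups did not overlap for any of the 3. The number of copies of each family in each fly line was not measured here, and copies and transcription per copy cannot be told apart.

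**Figure D5:**
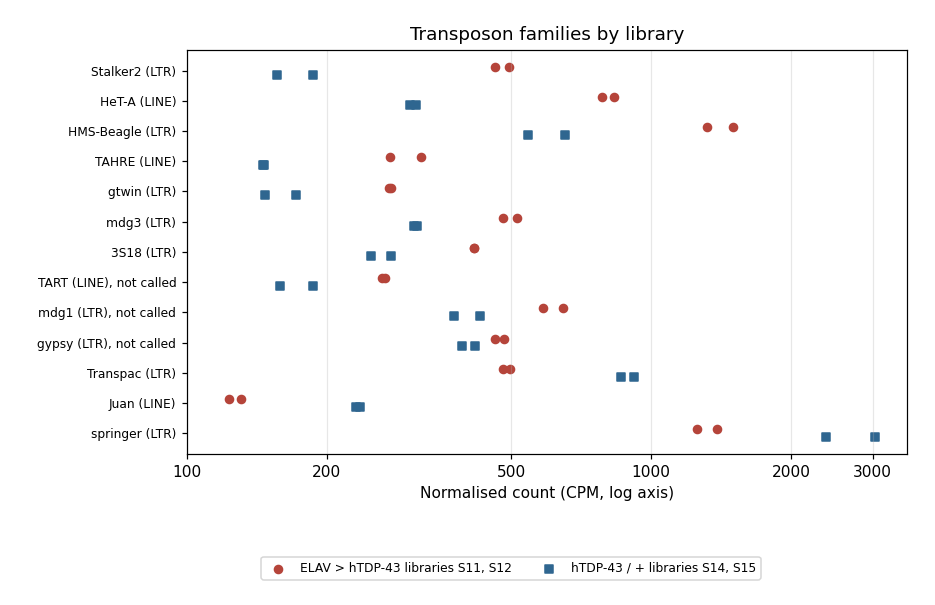
Normalised count in CPM (horizontal log axis) of the 10 called families and of TART, mdg1 and gypsy in each library, with circles for ELAV > hTDP-43 and squares for hTDP-43 / +. The circles lie right of the squares for Stalker2 down to gypsy and left of them for Transpac, Juan and springer, and the groups do not overlap for any of the 13 families.

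The calls for families also rested on single libraries. Without S11, 4 families were called and all were among the 10, and without S12 there were 2, HeT-A and Stalker2. Without S14, 30 families were called, 17 higher and 13 lower, and without S15 there were 23, 11 higher and 12 lower. All 10 kept their direction in each of these fits.

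Several families differed between ELAV > hTDP-43 and Repo > hTDP-43 heads, which was tested directly in a fit of all 6 head libraries. In this fit 23 of 120 families passed (19.2%), beside 3271 of 13579 genes (24.1%). springer was lower in ELAV > hTDP-43 by 1.60 on the log2 scale, Juan was lower by 0.85 and Transpac by 0.67. TAHRE was higher by 0.99, Stalker2 by 1.12, TART by 0.64, mdg1 by 0.59 and gtwin by 0.49. 3S18 and mdg3 rose in the ELAV > hTDP-43 heads relative to hTDP-43 / + and yet were lower there than in Repo > hTDP-43 heads, by 0.70 and 0.37. For HeT-A the difference of 0.19 and for HMS-Beagle that of 0.12 did not pass (adjusted p = 0.0967 and 0.433 in edgeR).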

How the data were processed

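Paired-end libraries were prepared from total head RNA with a NuGEN Ovation kit. The authors mapped reads with STAR to the dm3 genome, allowing 4 mismatches and up to 100 alignments per read. They then removed reads on ribosomal RNAs and counted genes and transposon families together with TEtranscripts. The deposited values are whole-number counts without normalization. Versions, counting by strand and the setting used for reads with several alignments are not given in the sources used here.

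The 4 libraries of ELAV > hTDP-43 and hTDP-43 / + were fitted together in edgeR 4.0.16 (R 4.3.3, limma 3.58.1) with TMM normalization, filterByExpr (minimum count 10, minimum total 15) and the two-sided quasi-likelihood test. Benjamini-Hochberg adjustment ran over 12942 features and calls were made at 0.05. ELAV > hTDP-43 and Repo > hTDP-43 were compared in a fit of 6 libraries. DESeq2 1.42.0, other scalings, filters and thresholds, and leaving out each library were tried. The edgeR test was first tested on simulated data. Transposon classes follow the families' names, and 12715 of 12822 genes were matched to RefSeq Release 6, used for names and gene order only. Intervals for counts are exact, 95%, and cover counting error only, since reads carry no molecular identifiers.

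The genes and families named are the called families and those the study names, the 12 largest rises and 12 largest falls among called genes with a mean of at least 1 CPM and no overlap, called members of the gene lists, called neighbours in annotation order, and TBPH, w and elav. Other genes are named as members of the same list, family or neighbourhood, or as stated. The members and lists were chosen with earlier results of these data known. Columns of all 6 head libraries were mapped and 0 were left unused. The small RNA counts hold no library with a neuronal driver and were not used.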

Additional observations from a re-analysis of the deposited data

Results flagged for a closer look

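Among the called families and those the study names, 10 differed in level between ELAV > hTDP-43 and Repo > hTDP-43 heads. The direct test in edgeR's fit of 6 libraries gave them an adjusted p between 0.000245 and 0.0116. Over all families 23 of 120 passed that test (19.2%), beside 24.1% of genes. The log2 difference was -1.60 for springer, which was at -1.04 with ELAV > hTDP-43 and 0.58 with Repo > hTDP-43 relative to hTDP-43 / +. The brackets that follow give the ELAV > hTDP-43 value and then the Repo > hTDP-43 value. The difference was -0.85 for Juan (-0.88 and -0.02), -0.70 for 3S18 (0.66 and 1.38), -0.67 for Transpac (-0.87 and -0.19) and -0.37 for mdg3 (0.68 and 1.06). It was 1.12 for Stalker2 (1.47 and 0.37), 0.99 for TAHRE (1.02 and 0.03), 0.64 for TART (0.62 and -0.01), 0.59 for mdg1 (0.61 and 0.03) and 0.49 for gtwin (0.78 and 0.30). Both comparisons with hTDP-43 / + share the same control libraries, which cancel from the direct differences but enter their standard errors and adjusted p.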

How the results depend on the processing

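The 110 called genes and 10 called families kept their direction in all 12 alternative fits (100 of the genes under a minimum of 10 counts in every library, where the others were not tested). The counts themselves moved. The number of genes called was 296 with DESeq2, 182 with no filter, 223 in a fit of all 6 libraries and 33 at an adjusted p under 0.01, and between 28 and 1026 with 1 library left out. The number of families called was 18 with DESeq2, 16 in the fit of 6 libraries, 6 at an adjusted p under 0.01, 5 when a change of at least 1 on the log2 scale was also asked for, 20 when adjusted over the transposons alone, and between 2 and 30 with 1 library left out. The share of called genes that were higher was between 41.5% and 63.9% and that of families between 47.8% and 100% with 1 library left out. Library size alone gave 76 higher and 55 lower genes. Between ELAV > hTDP-43 and Repo > hTDP-43, 3271 genes and 23 families were called; leaving out 1 driver library gave between 935 and 1800 genes and between 12 and 17 families, and a fit of the 4 driver libraries alone gave 37 families. The log2 fold change of elav, never called, lay between -0.0156 (without S11) and 0.0848 (without S15) with 1 library left out, and was -0.0111 without S14. Of 972 values of 70 named features under alternatives, 822 stayed on their side of the threshold, 136 lost and 12 gained a call. The gained calls were all those of TART and mdg1. Some settings impose fewer samples or a stricter threshold, and the cause of these shifts was not tested. No paired analysis was possible because the library numbers are not shared between the groups. With 2 libraries per group, features with few counts are the least certain.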
